A study of Mus musculus with 16 samples.

Results

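The ureteric bud (UB) was compared with the metanephric mesenchyme (MM) of the wild-type mouse kidney rudiment at E11.5 (embryonic day), on 7 of the 16 arrays of the series: the 4 UB arrays (replicates 1 to 4) and the 3 MM arrays of tissue separated by fine manual dissection (replicates 5 to 7). The 4 wild-type and 5 Hoxa11/Hoxd11 double null MM arrays taken by laser capture were not used. Both structures came from rudiments up to the T-shaped stage, loosened in collagenase B (0.5 mg/ml, 37 °C) and pulled apart. Each UB array pooled 3 to 9 buds, whereas the labels describe the MM RNA as coming from individual mesenchymes, so pooling and structure cannot be told apart. Replicates are described as separate embryos; the sources do not name strain, sex, litter or scan batch. The question was which genes are particular to either structure, and it is taken here across all genes.

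The UB is a branching epithelial tube that grows out of the nephric duct and becomes the collecting duct tree and ureter. The MM is a loose tissue of nephron and stromal progenitors, threaded with vessels, nerves and macrophages. The tissues talk to each other: MM factors drive the bud to branch, and bud factors keep the progenitors alive and induce them to form nephrons.

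Values are linear MAS5 signals, which are array brightness scaled by the authors to a common trimmed mean, given per array or as mean ± SD. Differences are UB minus MM in log2(signal + 36.3), with limma's standard error (SE) and Benjamini-Hochberg adjusted p, so that the change of dim genes is understated. Each gene was read from the probe set of its highest mean log2 signal over all 16 arrays. Only 4 of these are UB arrays and the rest are MM, so the choice can favour probe sets that are bright in MM. A gene was tested when it exceeded the array's own median in at least 3 arrays, which 12435 of 18193 genes did, and was called at an adjusted p below 0.05. A gene can pass that filter through the structure where it is bright alone, so the counts below describe the lists and are no tests of them. Of all genes tested, 28.5% were called, 13.9% higher and 14.6% lower in UB, and the median difference was 0.01. These are the shares to hold each list against. Of the calls, 48.7% were higher in UB; with each array centred on its own median instead, which moves the median of all genes to 0.14, the share was 61.2%.

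The labels held up for the 4 chosen markers. Calb1, a calcium-binding protein of the bud, read 55388, 55890, 66116 and 68976 in UB and 171.7, 170.1 and 123.7 in MM. Ret, the receptor for the growth factor GDNF, read 28170, 33441, 25124 and 25851 in UB and 206.9, 175.1 and 241.9 in MM. Six2, a factor of nephron progenitors, read 699.5, 435.2, 548.3 and 643.5 in UB and 20603, 23655 and 21668 in MM. Foxd1, a factor of stromal progenitors, read 159.4, 37.4, 83.1 and 91.5 in UB and 8870, 12692 and 14639 in MM. The groups were far apart for each. The summed signal of 14 bud markers ran from 222361 to 287359 in UB and from 3368 to 3965 in MM. That of 14 mesenchyme markers ran from 2128 to 3257 in UB and from 124126 to 134787 in MM. UB replicate 1 had the lowest bud sum and the highest mesenchyme sum of the UB arrays. In 3 markers the array went against the usual description. Hoxb7, whose promoter is the standard driver of bud transgenes, stayed below the array median on all 7 arrays (3.4 to 72.5) and was not tested, as did the nephron progenitor factor Osr1 (at most 145.5). Cited1, a marker of cap mesenchyme, was dim and higher in UB (256 ± 57.7 against 61.8 ± 49.5, SD, n = 4 and 3).

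Correlation of log2 signals was 0.966 to 0.979 between UB arrays, 0.967 to 0.976 between MM arrays, and 0.918 to 0.943 across structures, the highest cross pair being UB replicate 1 with MM replicate 5. The same 2 arrays stood apart from the rest in single genes. Slc15a2, a peptide transporter, read 5429 in UB replicate 1 and 3602 in MM replicate 5, and between 75 and 157.9 elsewhere. Trim5, of a family of antiviral factors, did the reverse, at 22.2 and 50.2 there and 689.4 to 1296 elsewhere. Other genes split the arrays in other ways: Tmem14c read 323.6 in UB replicate 2 and 459.1 in MM replicate 6 against 3793 to 5875 on the rest, and Rbm45 stood at 2270, 2884 and 5158 in UB replicates 3 and 4 and MM replicate 7 against 185.4 to 306.1. Trim12c, Trim68 and Grik5 were also among the most variable genes within UB, and Nr4a3 (31.6, 306.5 and 3249) and Gm6958 (11.6, 203.4 and 667.4) within MM. Without UB replicate 1 and MM replicate 5 together, 2274 genes were called higher and 2309 lower, and 3420 of the 3547 calls made with all 7 arrays remained in their direction. The sex-linked genes also separated the MM arrays. Xist, the RNA of the inactive X chromosome, read 30402, 172.1 and 18682 in MM replicates 5 to 7, and the Y-linked Eif2s3y 1.4, 3723 and 2488. MM replicate 7 thus carried both transcripts, as did every pooled UB array (20689 to 30784 for Xist and 1058 to 2029 for Eif2s3y), although its RNA is labelled as that of an individual mesenchyme. Contamination and mixing were not tested.

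**Figure D1:**
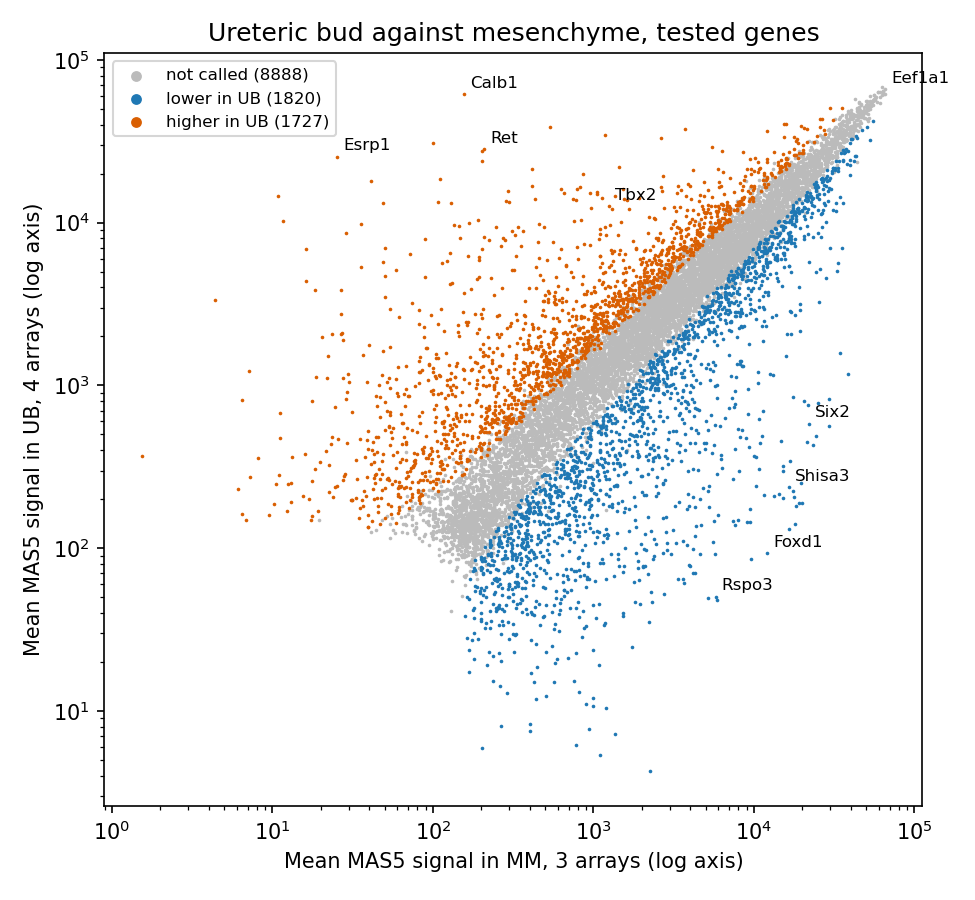
Mean MAS5 signal of each of the 12435 tested genes in MM (horizontal, log axis, 3 arrays) and UB (vertical, log axis, 4 arrays). Orange points are the 1727 genes called higher in UB, blue points the 1820 called lower, grey points were not called; the largest departures from the diagonal lie at low signal in the other structure.

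The difference between the structures was wide, and about even in its directions with the probe sets used here. With the median of all probe sets of a gene, 1545 genes were called higher and 1204 lower, so that 56.2% of calls were higher. Of the 1727 genes called higher in UB, 1210 differed by 2-fold or more, 472 by 4-fold, 107 by 16-fold and 24 by 64-fold. Of the 1820 called lower, the counts were 1319, 547, 129 and 13. The 5th and 95th percentiles of all tested genes were -1.86 and 1.67, with a median absolute difference of 0.43, and the median SD between arrays was 0.31 in UB and 0.27 in MM. In 5 equal bins of mean signal, genes of the brightest bin were called in 22.5% of cases and those of the second dimmest in 36.2%. Among the brightest genes that did not pass were the translation factor Eef1a1 (65988 ± 5923 in UB, 65715 ± 2988 in MM), the chaperonin subunits Cct3 and Cct2, Rps3 of the ribosome and the cytoskeletal actin Actg1 (difference of -0.04 ± 0.12 SE, log2 scale, limma adjusted p = 0.862).

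By the rule used here, genes present in 1 structure and at background in the other were more numerous on the bud side. With a call, every array of one structure above 2000 and every array of the other at or below its own median, 27 genes were bud-only and 9 mesenchyme-only. The rule is uneven, since it asks 4 UB arrays to be dim for a mesenchyme-only gene and 3 MM arrays for a bud-only gene. Array medians, controls included, were also lower in UB (126.8 to 132.9) than in MM (140 to 151). Without UB replicate 1 the mesenchyme-only genes numbered 18, and without that array and MM replicate 5 the counts were 34 and 23. Cldn7, Cldn3, Cldn8, Cldn4 and Ocln among the bud-only genes build tight junctions, and Cdh1 and Cdh16 are epithelial cadherins. Cdh1 (E-cadherin) read 6173, 12869, 8519 and 6915 in UB and 52.9, 4.1 and 28.9 in MM. Wfdc15b, of the whey acidic protein family of protease inhibitors, read 9776, 12676, 15666 and 15695 against 121.1, 107.6 and 95.2, one of the brightest of the set. Pkhd1, the gene of recessive polycystic kidney disease, read 6018, 9011, 6748 and 5944 against 2.8, 5.2 and 40.7. A wide gap between the groups is fixed by the rule for all genes of this set. The set also held Sim1, a bHLH-PAS factor (7974, 4284, 2648 and 2602 against 11.8, 14.4 and 22.3), whose UB arrays spread about 3-fold with replicate 1 highest. Sostdc1, a secreted antagonist of BMP and Wnt ligands, read 2144, 4101, 4039 and 3159 against 4.0, 6.6 and 2.6, the dimmest MM level of the set. Arg2 (6392 ± 878 against 72.2 ± 27.1), the calcium sensor Vsnl1 (5742 ± 668 against 49.0 ± 34.9), the peptidase Dpp4 (5103 ± 2000 against 58.5 ± 42.0) and the calcitonin receptor Calcr (2742 ± 1032 against 26.8 ± 12.9) were among the less familiar members. Here and below n is 4 for UB and 3 for MM.

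The mesenchyme-only genes were Arg1, Rspo3, Cyp1b1, Ptx3, Mc2r, Tmem45a, Wt1, Ntng1 and Hoxc8. Rspo3, a secreted enhancer of Wnt signalling, read 125.6, 48.9, 11.2 and 15.8 in UB and 4188, 7133 and 5986 in MM. Cyp1b1, a cytochrome P450 that can oxidise retinoids and steroids, read 101.9, 34.0, 41.8 and 20.9 against 6762, 4438 and 4239. Mc2r, the receptor for adrenocorticotropic hormone and best known from the adrenal cortex, read 98.9, 93.5, 49.8 and 71.5 against 5892, 3167 and 2837. The rule for the set leaves no overlap, and UB replicate 1 was the highest of the UB arrays for each of these 3 genes. Beside Mc2r, other adrenal or steroidogenic genes did not go with it: Nr5a1, Cyp17a1 and Hsd3b1 were not tested (at most 83.4 on any array), Star differed by -0.23 ± 0.24 SE (limma adjusted p = 0.517), and Cyp11a1 was dim and higher in UB (288 against 105). Ptx3, a secreted pattern recognition protein, stood at 70.5 ± 21.4 against 4161 ± 1140, and Ntng1, a membrane-anchored netrin relative, at 52.3 ± 28.8 against 2761 ± 852. The 2 arginases were split between the structures, Arg2 in the bud and Arg1 in the mesenchyme (48.0 ± 49.8 against 5890 ± 1858).

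**Figure D2:**
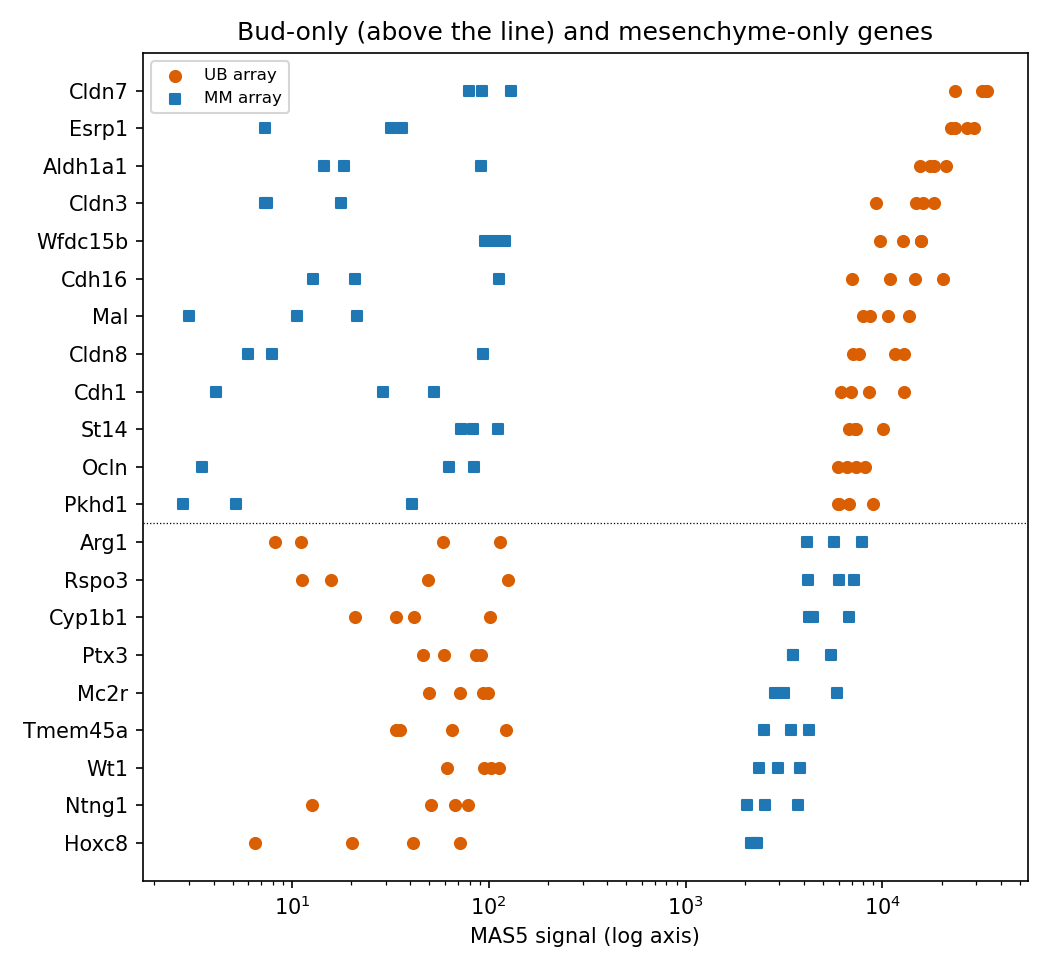
MAS5 signal (horizontal, log axis) on each array for the 12 brightest bud-only and the 9 mesenchyme-only genes; circles are the 4 UB and squares the 3 MM arrays. The rule that picked these genes fixes a gap of more than 1 log10 unit in every row.

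Ranked by the size of the difference against its error, the leading genes included some outside the usual marker sets. Sgpp2, a sphingosine-1-phosphate phosphatase, read 24605, 31695, 25728 and 27365 in UB and 189.9, 154.6 and 263.2 in MM (difference of 6.86 ± 0.22 SE, log2 scale, limma adjusted p = 4.21e-09). It ranked with Calb1, Esrp1, Cldn7, Ret and Pou3f3. In the mesenchyme the first was Shisa3, a protein that holds back Wnt and FGF receptors in the endoplasmic reticulum, at 281.7, 215.8, 248.4 and 205.4 in UB and 15870, 16850 and 16755 in MM (-5.92 ± 0.20 SE, limma adjusted p = 7.78e-09). Tpm2, a tropomyosin (559 ± 125 against 29325 ± 2042), Plat, tissue plasminogen activator (242 ± 36.8 against 10357 ± 1994), and Syt7, a calcium sensor of exocytosis (159 ± 27.3 against 6012 ± 824), were of the same order, as were the cadherin Cdh11 (144 ± 37.0 against 9064 ± 1176) and the homeobox factor Meis2 (429 ± 139 against 23299 ± 2536).

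The lists of transcription factors were drawn up by structure with earlier results known, so their direction is a description. Of 37 listed bud factors, 34 were on the array and 26 were tested; 20 were called higher in UB and 1, Esrrg, lower. Grhl2, a grainyhead factor that drives epithelial junction genes, read 6054, 7580, 6158 and 5009 in UB and 184.6, 168.9 and 142.8 in MM (difference of 4.94 ± 0.22 SE, log2 scale). Tfcp2l1, a factor of the same superfamily known from the collecting duct, read 6864, 11775, 12668 and 6695 against 196.3, 137.0 and 106.0. Ovol2, a zinc finger repressor that guards epithelial identity, read 1644, 1780, 2265 and 2290 against 73.1, 89.3 and 102.5. The groups did not overlap for these genes, as for 36.4% of all genes tested. Lhx1, Tfap2b, Emx2, Tfap2a, Gata3 and the ETS factor Elf5 were higher by between 4.02 and 6.40. The Ret-responsive ETS factors Etv4 and Etv5 were higher by 2.88 ± 0.43 and 1.34 ± 0.19 SE, Myb by 2.11 ± 0.22 and Mycn by 0.83 ± 0.17. Gata2, Sox9 and Prdm1 did not pass, at -0.61, 0.39 and -0.58. Grhl3, Ehf, Foxa1, Foxi1, Spdef, Vdr, Creb3l1 and Hoxb7 were too dim to test; several of these belong to later duct or other epithelia. Noncoding transcripts beside 2 of these genes were also higher: Pantr1, transcribed beside Pou3f3, read 3203 ± 540 in UB and 74.1 ± 41.7 in MM, and Lhx1os, antisense to Lhx1, 687 ± 119 and 54.2 ± 11.6.

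Of 58 listed mesenchyme factors, 55 were on the array and 50 were tested, with 41 lower in UB and 5 higher. The repressors of epithelial genes were among the lower ones. Zeb1 read 890.9, 321.1, 688.5 and 1124 in UB and 24351, 18344 and 22382 in MM (difference of -4.89 ± 0.35 SE, log2 scale), Zeb2 67.9 against 1354, and Snai2 298 ± 260 against 15147 ± 2270. Their relative Snai1 was too dim to test. Eya1, Eya4, Meis1, Foxc1, Tbx18, Meox1, Nr2f1, Sall1, Uncx and Ebf3 were lower by between -6.18 and -4.69. The 5 members that ran the other way were Tbx2, Tbx3, Irx3, Cited1 and Zfhx3. Tbx2, a T-box repressor, read 13424, 14384, 12216 and 10526 in UB and 1080, 1249 and 1424 in MM, and Tbx3 14729, 14393, 14758 and 11906 against 2189, 1514 and 974.9. Both stood apart on every array, opposite to Tbx18. Cited2, Lef1, Six4 and Zfhx4 did not pass. Of 21 forkhead genes tested (38 on the array), 0 were called higher and 10 lower, among them Foxp2, Foxo3 and Foxn2 besides Foxc1, Foxc2, Foxd1 and Foxd2. Of 26 tested Hox genes, 14 were lower and 5 higher. Hoxc10, Hoxd10, Hoxa10 and Hoxa9, of the posterior end of their clusters, were lower by -6.44 to -5.22, and Hoxd1 and Hoxb4 higher by 2.65 and 2.13. The Hoxa11 and Hoxd11 genes deleted elsewhere in the series were lower in UB (-2.24 and -2.97).

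The Zeb and Snai proteins bind the E-box CACCTG, which reads CAGGTG on the opposite strand, and the promoters of the bud's strongest genes held it far more often than others. Promoters are RefSeq's (GRCm38.p6), from 250 bases before to 50 after the annotated start, matched by symbol for 10053 of the 12435 genes tested. The E-box, on either strand, was in 17.8% of all these promoters, in 30.8% of the 1366 of genes called higher in UB, in 14.7% of the 1392 of genes called lower and in 16% of the 7295 of genes not called. It was in 39 of 76 promoters (51.3%) of genes called higher by 16-fold or more, and in 4 of 87 (4.6%) of those called lower by as much. Across bins of the difference the share was 12.9% between -4 and -2, 15.6% between -2 and -1, 15.4% and 17.4% either side of 0, 27.8% between 1 and 2, and 40.5% between 2 and 4. Restricted to genes with 1 promoter in the table, the outer shares were 1.47% (1 of 68) and 56.7% (34 of 60).

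Of the 6 promoters with 4 copies among genes called higher in UB, those of 3 genes of epithelial polarity, sorting and junctions are printed here, with that of the surface marker Epcam. Capitals mark each E-box, in either orientation. Ap1m2 encodes the epithelial clathrin adaptor subunit of basolateral sorting, Crb3 an apical polarity protein, Lsr an angulin of tricellular junctions and Epcam an epithelial adhesion molecule. Ap1m2 lies on the minus strand at chr9:21312284-21312583, Crb3 on the plus strand at chr17:57061951-57062250, Lsr on the minus strand at chr7:30973420-30973719 and Epcam on the plus strand at chr17:87635729-87636028.
Ap1m2: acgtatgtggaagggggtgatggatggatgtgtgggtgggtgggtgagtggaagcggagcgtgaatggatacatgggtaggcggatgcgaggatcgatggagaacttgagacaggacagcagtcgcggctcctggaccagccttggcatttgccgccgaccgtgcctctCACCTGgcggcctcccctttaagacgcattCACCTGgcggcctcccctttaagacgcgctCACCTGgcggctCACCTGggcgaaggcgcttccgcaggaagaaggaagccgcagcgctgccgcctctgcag
Crb3: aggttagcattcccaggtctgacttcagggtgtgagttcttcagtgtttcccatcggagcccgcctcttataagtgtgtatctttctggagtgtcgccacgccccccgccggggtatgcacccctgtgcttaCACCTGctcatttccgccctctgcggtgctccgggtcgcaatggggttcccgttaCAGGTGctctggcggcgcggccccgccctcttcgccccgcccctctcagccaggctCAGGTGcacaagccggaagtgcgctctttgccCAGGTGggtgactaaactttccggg
Lsr: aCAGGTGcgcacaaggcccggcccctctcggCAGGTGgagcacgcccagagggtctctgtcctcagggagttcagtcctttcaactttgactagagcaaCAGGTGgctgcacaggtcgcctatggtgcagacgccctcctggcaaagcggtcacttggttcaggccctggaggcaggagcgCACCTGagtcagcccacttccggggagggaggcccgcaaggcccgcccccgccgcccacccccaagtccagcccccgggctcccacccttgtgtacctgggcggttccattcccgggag
Epcam: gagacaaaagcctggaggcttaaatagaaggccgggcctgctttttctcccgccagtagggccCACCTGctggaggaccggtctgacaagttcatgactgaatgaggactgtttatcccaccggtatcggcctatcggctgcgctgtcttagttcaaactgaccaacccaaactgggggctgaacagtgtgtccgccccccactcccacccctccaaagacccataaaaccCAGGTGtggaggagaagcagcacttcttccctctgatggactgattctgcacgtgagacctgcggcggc
In Ap1m2 the 4 copies began at 81, 51, 21 and 9 bases before the start, and in Crb3 at 118, 63 and 7 before and 25 after it. The same genes read 9726 ± 3092 (Ap1m2), 2261 ± 626 (Crb3), 5495 ± 1377 (Lsr) and 34356 ± 3770 (Epcam) in UB, and 136 ± 58.9, 289 ± 116, 674 ± 117 and 1189 ± 54.9 in MM. Of the genes called higher in UB, 6 had 4 copies: Ap1m2, Tmem30b, Mfsd6l, Lsr, Crb3 and 1810019D21Rik. The number of copies was not compared with that in the promoters of other genes, so it is not shown to be particular to bud genes.

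No other E-box spelling ran with the difference in this way. In the same outer bins of the difference, CAGCTG was in 23% of the strongest mesenchyme promoters and 13.2% of the strongest bud promoters, and CACGTG in 4.6% and 10.5%. CACATG ran the opposite way, in 16.1% (14 of 87) and 2.63% (2 of 76), against 7.98% of all. Of all 9 other CANNTG spellings, these included and chosen for comparison after the first result was seen, none was in more than 13.2% of the promoters of genes 16-fold higher in UB. Median GC content differed little, at 59.7% and 61.5% in the outer bins. The other motifs were also searched on either strand. The forkhead motif TGTTTAC was in 2.63% of the promoters of the 76 strongest bud genes and in 2.42% of all. The Gata motif was AGATAA, at 5.26% and 6.04%, that of AP-2 was GCCNNNGGC, at 21.1% and 25.4%, and a part-site of Six2-type factors was TCAGGTTTC, at 0% and 0.398%. AACCNGTT (grainyhead-like) was in 5.26% of the strongest bud promoters (4 genes) and 1.76% of all, GTTAAT (an Hnf1 part-site) in 9.21% and 3.92%, GGAATG (TEAD) in 19.7% and 11.9%, and TATAAA in 10.5% and 7.13%. CCGGAAG (ETS) was in 6.58% of the strongest bud promoters, 3.45% of the strongest mesenchyme promoters and 17.7% of all. These letters overlap none of the E-box spellings in full, and a match says only that the letters are present.

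**Figure D3:**
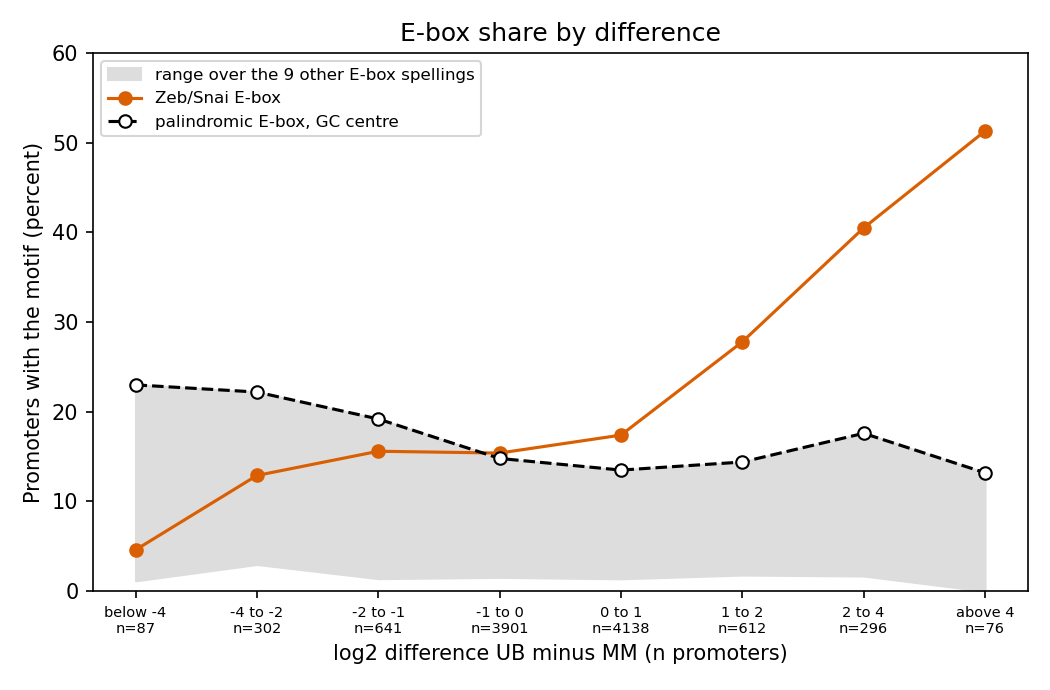
Share of promoters (percent) that hold the Zeb/Snai E-box (filled circles), the palindromic E-box with a GC centre (open circles) or any of the other 9 E-box spellings (grey range), by bins of the log2 difference UB minus MM. The filled circles run from 4.6% at the left to 51.3% at the right while the grey range stays at or below 23%.

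Genes of epithelial polarity and traffic rose in part. Of 37 listed polarity and junction genes, 32 were tested, 13 higher and 3 lower in UB. Among the higher ones were the junction genes Ocln, Cgn, Marveld3, Marveld2, Tjp3 and Lsr, the apical polarity genes Crb3, Pard6b and Prkcz, and the basolateral Llgl2, from 6.49 down to 2.24. The general scaffold did not pass: Tjp1 (16255 in UB, 18963 in MM), Dlg1, Llgl1, Pard3 and Mark2 differed by -0.23 to 0.05. Amot, Amotl1 and Pard6g were lower (-1.63 ± 0.30, -1.08 ± 0.22 and -0.90 ± 0.27 SE). Within the family of Par6 proteins, which link Cdc42 to atypical protein kinase C, Pard6b was thus higher in UB (5933 against 801), Pard6g in MM (6948 against 12446), and Pard6a did not pass (704 against 531). The Pard6g call was lost without UB replicate 2, 3 or 4 or MM replicate 5 or 7 (limma adjusted p up to 0.138).

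Of 34 listed genes of apical traffic and the lumen, 30 were tested, 19 higher and 2 lower. Mal, a raft protein of apical transport (8638, 13672, 10691 and 8006 in UB, 21.5, 10.6 and 3.0 in MM), Mal2, Ap1m2, the small GTPases Rab25 and Rab17, the motor Myo5b and the fusion protein Stx3 led, from 7.73 to 2.66. Rab11a, the general recycling GTPase with which several of these work, did not pass (5829 against 5302, difference 0.15). Ehd2 and Sytl2 were lower, and Podxl, Cd24a and Slc9a3r1 did not pass. Among all 50 tested Rab genes, 8 were higher and 8 lower, a share of 32.0% against the 28.5% of all genes.

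Transport genes of the mature collecting duct were present in part. Of 41 listed, 37 were on the array, 21 were tested, 10 were higher and 3 lower. Scnn1g, the gamma subunit of the epithelial sodium channel, read 954.0, 3570, 2193 and 1610 in UB and 22.3, 9.2 and 48.6 in MM, and the potassium channel gene Kcnj16 1916, 2883, 2351 and 1291 against 12.6, 59.7 and 9.2. The beta subunit Scnn1b was dim but higher (403 against 155), and the alpha subunit Scnn1a did not pass (189 against 242). The calcium-permeable channels Trpv4 and Trpv6, the carbonic anhydrases Car12 and Car2, the sodium pump subunit Atp1b1 and the vasopressin receptor Avpr2 were higher, by 3.91, 2.81, 2.12, 1.62, 1.65 and 1.72. Aqp2, Aqp5, Aqp6, Atp6v1b1, Kcnj1, Fxyd2 and Umod were too dim to test, and Aqp3 did not pass. The chloride channel gene Cftr was lower in UB (54.0 against 686, -3.07 ± 0.40 SE). The pore subunit Kcnk1 had the largest difference of the 32 tested potassium channel genes (84 on the array), at 17241, 18379, 16836 and 14886 against 678.7, 230.5 and 341.6, and Kcnk2 ran the other way (233 against 4795).

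Of 362 solute carriers on the array, 240 were tested, with 46 higher and 32 lower, or 32.5% called, near the share of all genes. Slc27a2, a fatty acid transporter and acyl-CoA synthetase, and Slc7a8, an amino acid exchanger, were higher by 3.60 ± 0.36 and 3.31 ± 0.38 SE. Slc2a3, a high-affinity glucose transporter, was brighter, at 19429 ± 3029 against 2723 ± 159. Slc26a7, an anion transporter, read 29.2, 14.2, 43.2 and 173.4 in UB and 890.9, 2199 and 7684 in MM, apart from UB on every array but widely spread within MM. Slc40a1, the iron exporter ferroportin, read 2853 ± 1128 against 16848 ± 1635, beside the higher erythroid and macrophage genes of the MM described last.

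A set of membrane serine proteases and their inhibitors was strong in the bud. Of 25 listed genes, 17 were tested, 10 higher and 3 lower. St14 (matriptase), a protease of the epithelial surface, read 7338, 10103, 7272 and 6786 in UB and 111.8, 72.0 and 82.8 in MM. Prss8 (prostasin), which acts with it, read 2696, 5102, 4155 and 3418 against 6.1, 66.6 and 7.6. Their Kunitz inhibitors were there too, Spint1 at 4281 ± 1518 against 131 ± 19.0 and Spint2 at 33165 ± 4585 against 2647 ± 609. Tmprss2 and Hpn (hepsin), other transmembrane proteases, were higher by 5.28 and 2.71. On the mesenchyme side were Plat and Serpinb9 (-5.21 and -2.77). Plau, the other plasminogen activator, was too dim to test.

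Matrix proteases, their inhibitors and crosslinking enzymes were mostly lower in UB. Of 36 listed matrix proteases and crosslinking enzymes, 27 were tested, 19 lower and 1, Adamts16, higher in UB (2662 against 498). Adamts12, the collagen crosslinker Lox, Pcolce, Adamts20 and Adam19 were lower by -4.65 to -2.90, and the protease inhibitors Timp1, Timp3 and Reck by -2.26, -2.13 and -1.86. Mmp2, a gelatinase, was bright in both (13284 against 32351). Mmp14, its activator, did not pass (697 against 855).

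Proteoglycans and the enzymes of their sugar chains went both ways. Of 43 listed proteoglycan and heparan sulfate genes, 36 were tested, 6 higher and 13 lower. Vcan (versican) read 2768, 2337, 496.3 and 757.8 in UB and 34920, 31845 and 36998 in MM, and Has2, which makes hyaluronan, 738.4, 529.6, 322.6 and 187.4 against 12717, 10398 and 9775; in both, UB replicates 1 and 2 were the higher UB arrays. Enzymes of a shared sulfation step were on the bud side, Hs3st3b1 (4399, 9172, 6264 and 4764 against 234.6, 164.5 and 184.8) and Hs3st3a1 (1465 ± 188 against 105 ± 39.4). Of the 6-O-sulfotransferases, Hs6st1 was higher (2.02 ± 0.25 SE) and Hs6st2 lower (-2.55 ± 0.28 SE) in UB. Sulf1, which removes such sulfates outside the cell, was lower (-4.38 ± 0.56 SE), and Sulf2 less so (-0.73 ± 0.11 SE). The bright core proteins Gpc3, Sdc1 and Gpc4 and the polymerase Ext1 did not pass, whereas Agrn was higher (1.08 ± 0.20 SE).

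**Figure D4:**
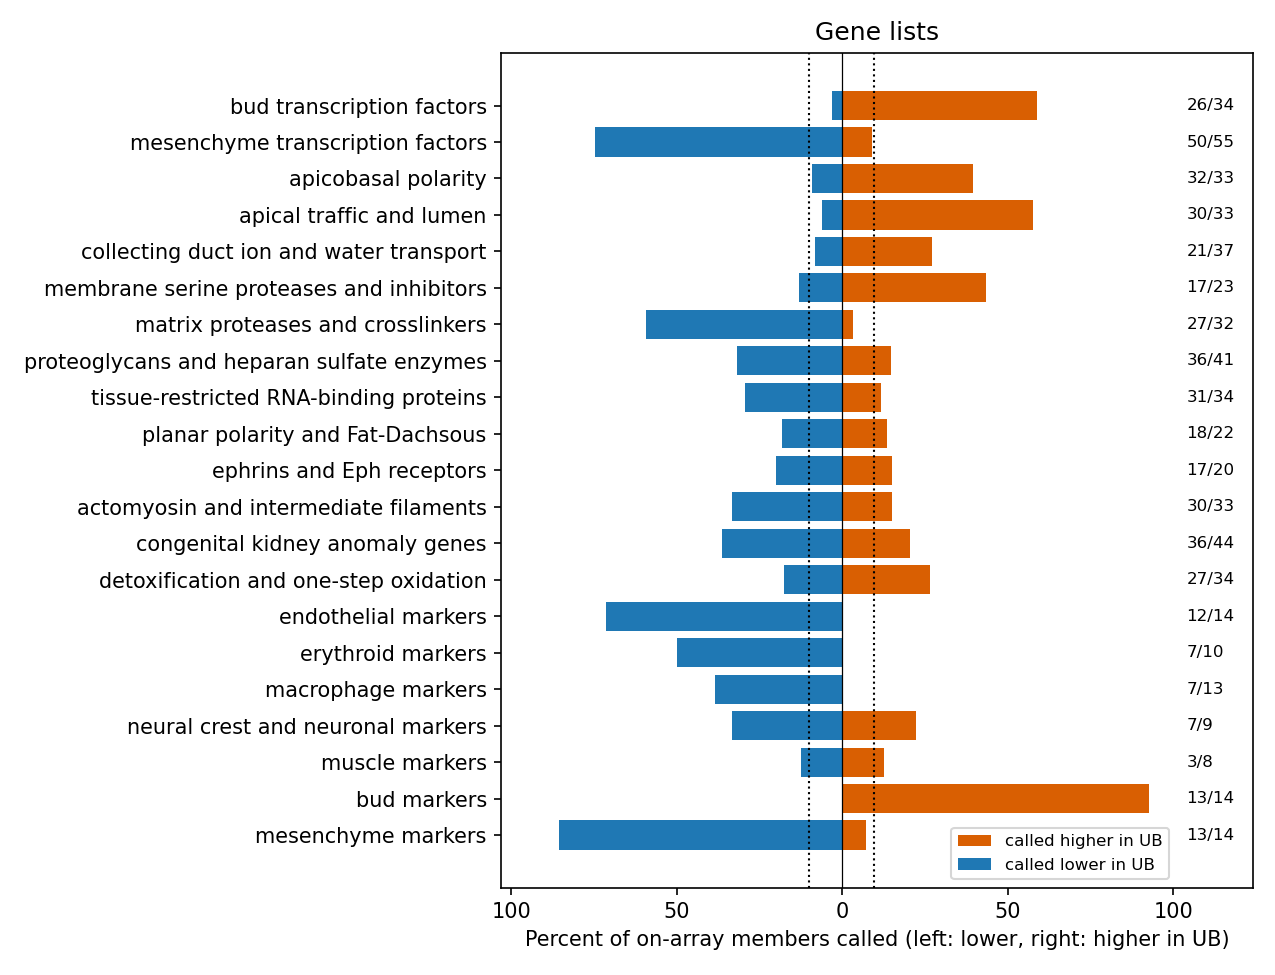
Share of the on-array members of each fixed list (percent) that were called higher in UB (orange, to the right) or lower (blue, to the left); numbers at the right give members tested of members on the array. Dotted lines mark the same shares over all 18193 genes on the array, 9.49% higher and 10.0% lower.

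Enzymes of retinoic acid and detoxification differed by member. Aldh1a2, the retinaldehyde dehydrogenase of stroma, read 549.9, 304.0, 162.7 and 270.9 in UB and 13328, 16718 and 15322 in MM. Aldh1a3, an enzyme of the same reaction, read 11505, 21153, 17903 and 23843 against 169.9, 55.2 and 109.4, and Aldh1a7 8930 ± 1016 against 365 ± 228. Aldh1a1, another retinaldehyde dehydrogenase, read 17400, 15515, 18335 and 21083 against 18.3, 91.0 and 14.5. The groups did not overlap for Aldh1a2, Aldh1a3 or Aldh1a1, as for 36.4% of all genes tested. Of the degrading enzymes, Cyp26a1 was dim and higher in UB (362 against 37.7) and Cyp26b1 did not pass (637 against 664). Among glutathione transferases, 6 of 19 tested were higher, including Gstt3 (3.57), Gstt1 (2.02) and Mgst1 (21476 against 5967), and 1, Gsto1, was lower (-0.51).

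Of 31 tested RNA-binding proteins of restricted tissues, 4 were higher and 10 lower, with a median difference of -0.28. Esrp1, the epithelial splicing regulator, was the largest, and its paralog Esrp2 did not pass (316 against 135, difference 0.99 ± 0.35 SE, limma adjusted p = 0.0603). Cpeb1, which controls poly(A) tails, was higher (2.98 ± 0.33 SE), and Rbm20 and Rbm24, known from muscle splicing, lower (-3.74 ± 0.42 and -3.00 ± 0.32 SE). Ptbp1, Celf1 and Rbfox2 did not pass. The 4 textbook targets of Esrp splicing, Fgfr2, Cd44, Ctnnd1 and Enah, had 1 member called at the gene level (Cd44, -2.62). Single probe sets of the others differed: for Enah, 1421624_a_at read 758 ± 23.7 in UB and 218 ± 31.5 in MM (difference of 1.65 ± 0.21 SE, log2 scale), whereas 4 others did not pass, and the dimmer probe set of Fgfr2, 1420847_a_at, was higher (0.88 ± 0.28 SE, limma adjusted p = 0.0392) while the brighter was not (0.23 ± 0.24 SE).

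Among 5300 genes with several tested probe sets, 822 had more than 1 called, and 17 had probe sets called in opposite directions. These were Ap1s2, Atp6v1e1, Cggbp1, Eif4g2, Epb41l5, Farsa, Gprc5c, Marcks, Noc2l, Nrxn3, Nudt5, Nup133, Pik3r1, Ppp2r5c, Rala, Snrpd3 and Usf2. Epb41l5, a FERM-domain protein of the Crumbs complex, was the widest. Its probe set 1425199_a_at read 11598, 4698, 7182 and 7153 in UB and 93.3, 153.8 and 110.6 in MM, and 1439284_at 5431, 3891, 3107 and 2311 against 7949, 6075 and 7042. The first differed by 5.57 ± 0.30 SE and the second by -0.98 ± 0.27 SE, and the second, which stands for the gene elsewhere here, placed it among the genes lower in UB. For Ap1s2, a clathrin adaptor subunit, 1460036_at was higher in UB (1.12 ± 0.21 SE) and 1447903_x_at lower (-2.63 ± 0.26 SE). Probe positions were not used here, so which transcripts each probe set reads was not tested.

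Ligands and their receptors were compared as pairs. Of 98 pairs listed, 90 were on the array, 68 had both members tested, and 19 had both called. In 7 the ligand was higher in MM and the receptor in UB, in 4 the reverse, in 6 both were higher in MM and in 2 both in UB. The 4 were 1 without UB replicate 3 or MM replicate 5, and 2 without UB replicate 2, UB replicate 4 or MM replicate 7, where some or all of Ptch1, Robo1 and Angpt1 lost their calls. The 6 were 3 without UB replicate 3, UB replicate 4 or MM replicate 7, and the 7 stayed at 7 with any 1 array left out. With a separate variance per group the 4 counts were 2, 1, 3 and 0. With the median of all probe sets of a gene they were 4, 4, 1 and 2, so the 2 opposed directions were then equal. From mesenchyme to bud ran Gdnf (255.2, 369.9, 117.6 and 67.0 in UB, 20706, 14559 and 10181 in MM) to Ret and its co-receptor Gfra1 (27530 ± 2568 against 6305 ± 757). The chemokine Cxcl12 (-1.75 ± 0.20 SE) and its receptor Cxcr4 (2.09 ± 0.40 SE) ran the same way, as did endothelin 3, Edn3 (-1.45 ± 0.26 SE), with Ednrb (1.89 ± 0.31 SE), and reelin, Reln (-2.89 ± 0.36 SE), with Vldlr (2.20 ± 0.23 SE). Other listed receptors of Cxcl12 and Reln did not pass: Ackr3 (10928 against 10365) and Lrp8 (2117 against 2443). The R-spondins Rspo1 and Rspo3 were lower in UB (-3.53 and -6.21), and of their listed receptors Lgr5 was higher but dim (242 against 63.2). The far brighter Lgr4, listed for both R-spondins, did not pass (10277 against 10324, difference -0.08).

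From bud to mesenchyme ran nephronectin, Npnt, a matrix ligand (21485, 27150, 20193 and 18629 in UB, 1526, 1395 and 1423 in MM), with its integrin Itga8 (128.5, 162.0, 154.6 and 147.8 against 7219, 7001 and 9696), the clearest pair of this kind. Shh ran to Ptch1 (5726 against 12559), Slit2 to Robo1 (1615 against 2666, although the median over the Robo1 probe sets was higher in UB by 0.55) and Angpt1 to the endothelial receptor Tek (341 against 2337). Tek is itself an endothelial marker, and those markers were higher in MM. Pairs with both members in the mesenchyme included the neurotrophin Bdnf (162 ± 66.5 in UB against 703 ± 253) with Ntrk2 (226 ± 57.8 against 5175 ± 1385). Pdgfc, bright in both tissues (22811 ± 1019 against 37990 ± 338), faced a receptor, Pdgfra, that read 1094, 257.2, 232.3 and 218.3 in UB and 21009, 20529 and 22668 in MM. Erbb3, a neuregulin receptor listed as a neural crest marker, was a bud gene here, at 19778, 25162, 22638 and 17563 against 346.9, 396.6 and 499.6.

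**Figure D5:**
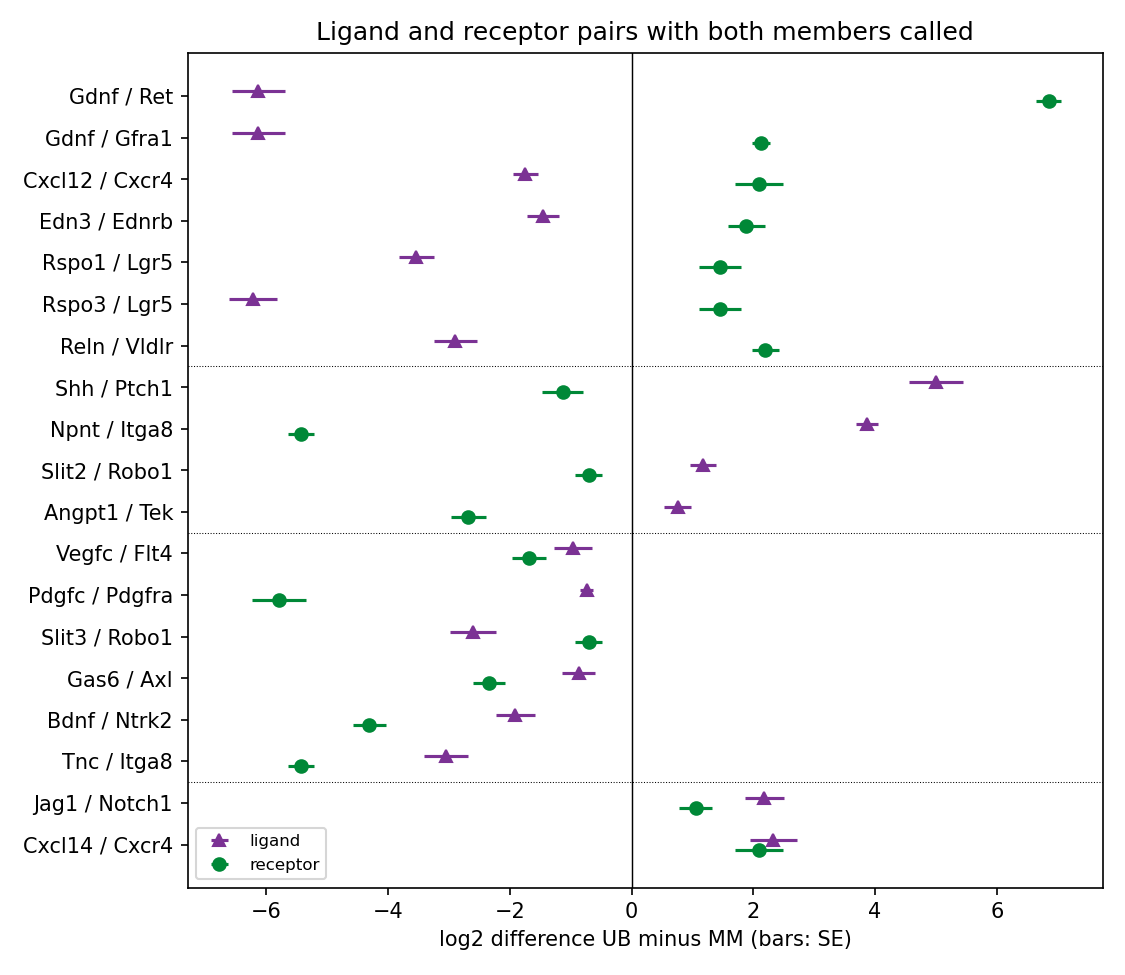
Log2 difference UB minus MM of the ligand (triangles) and receptor (circles) of the 19 pairs with both members called, with limma's SE as bars. Pairs are grouped by direction; the 7 at the top have the ligand left of 0 and the receptor right of 0.

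Of 20 tested Wnt and frizzled genes, 9 were higher and 3 lower. The ligands Wnt9b, Wnt6 and Wnt11 were higher in UB (5.57, 4.27 and 2.76), and Wnt4, a ligand of the nephron-forming mesenchyme, was lower (-2.96 ± 0.65 SE). Wnt4 was widely spread within UB, at 9.2, 347, 345.4 and 45.8 against 1155, 1025 and 1282 in MM. The frizzled receptors were divided, Fzd6 and Fzd8 higher (2.52 and 2.40) and Fzd1 and Fzd2 lower (-2.38 and -1.76).

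Ephrins, guidance and planar polarity genes split within families. Of 17 tested ephrin and Eph genes, Efnb2 (16668 against 3368), Epha1 and Efna4 were higher, and Epha7, Efna3, Ephb1 and Efnb3 lower. Of 28 tested semaphorins and plexins, 10 were higher and 5 lower, with Sema5b (3.17), Sema4d (2.54) and Sema3c (14541 against 3756) on the bud side and Plxna2 (-1.78) on the other. Among planar polarity genes Fzd6, Fjx1 and Celsr1 were higher (2.52, 2.48 and 1.94), and the giant cadherin Fat4 (189 against 19956), Ror1, Ror2 and Prickle2 were lower, that is 3 against 4 members, or 6 against 4 with arrays centred on their medians. Fat1, Vangl2, Dvl1 and Wnt5a did not pass. Fjx1, a kinase that acts on Fat and Dachsous cadherins, and Fat4 thus lay on opposite sides, with Dchs1 not called (376 against 740).

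Of 49 genes linked to congenital anomalies of the kidney and urinary tract, 44 were on the array and 36 were tested; 9 were higher in UB and 16 lower. The bud held Ret, Wnt9b, Gata3, Npnt, Frem2, Gfra1, Fras1, Slit2 and Bmp7, and the mesenchyme Foxc2, Eya1, Gdnf, Foxc1, Tbx18, Itga8, Six2 and Sall1 among others. The Fraser complex, which anchors epithelia to their basement membrane, was divided: Frem2 read 14581, 15825, 9837 and 9210 in UB and 976.1, 734.7 and 1175 in MM, and Frem1 321.0, 294.5, 351.2 and 170.3 against 5550, 5042 and 7083. Grip1, its intracellular partner, did not pass (673 against 488), nor did Dstyk, Chd1l, Trap1 and Nrip1. Robo2, Fgf20, Upk3a, Hpse2 and Agt were too dim to test.

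Other families showed where the structures differed little. Of 16 replication genes (Mcm2 to Mcm7 and DNA polymerase subunits), 0 were called with limma, and 2 had an unadjusted p below 0.05; with array weights 3 were called higher and 1 lower, and without UB replicate 1, 2 and 1. Of 42 tested genes with NADH dehydrogenase symbols, 3 were higher and 1 lower (9.52%), of 38 proteasome genes 7 and 0 (18.4%), and of 289 Zfp zinc finger genes 22 and 27 (17.0%), all under the 28.5% of all genes. With arrays centred on their medians the Zfp counts were 34 higher and 16 lower. Laminins (4 higher, 3 lower of 8), collagens (3 and 19 of 32) and sialyltransferases (2 and 9 of 18) were above it. Lama1 and Lama5, chains of epithelial basement membranes, were higher in UB (3.40 and 3.03) and Lama2 lower (-4.13). Col4a1 and Col18a1, also of basement membranes, were higher (0.68 and 1.36) while Col1a1, Col3a1 and Col5a2 were lower (-5.55 to -4.93). St8sia2, which makes polysialic acid, was lower (727 against 7013) and St6galnac2 higher (2.84). In the cytoskeleton the keratins Krt8, Krt18, Krt7 and Krt23 were higher (6.05 to 4.22), and Tpm2, Acta2, Mylk, Cald1 and Vim lower (-5.64 to -2.42). Vim was not absent from the bud, at 5208 against 25742, and Myh10, Actn1, Cnn3 and Tpm4 did not pass.

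Markers of endothelial, erythroid and macrophage cells were on the mesenchyme side. The summed signal of 14 endothelial markers ran from 6101 to 10224 in UB and 18418 to 27453 in MM, that of 10 erythroid markers from 9089 to 39015 and 64468 to 73416, and that of 13 macrophage markers from 1087 to 1625 and 4936 to 14482. Of these, 10 of 12 tested endothelial, 5 of 7 erythroid and 5 of 7 macrophage genes were called lower in UB. Below the median on every UB array were 2, 3 and 7 of the markers, and on every MM array 0, 3 and 3. The muscle list had a summed signal of 859 to 1188 in UB and 1841 to 5605 in MM, mostly from Actc1 (3144 ± 1866 in MM), with Myog, Myod1 and Myf5 too dim to test and Pax3 higher in UB (514 against 215). The sum of 9 neural crest and neuronal markers was 18638 to 26768 in UB, almost all from Erbb3, and 3054 to 3775 in MM, where Hand2, Elavl4 and Stmn2 were the brighter ones (-3.31, -2.32 and -1.99). Their part in genes called lower in UB, Slc40a1 and Tek among them, was not tested. In bulk tissue fewer cells of a type and less RNA per cell cannot be told apart. The MM arrays also differed from each other: Isl1, a LIM homeobox factor, read 19099, 9061 and 4318 in MM replicates 5 to 7 and 981.8, 102.1, 80.7 and 69.7 in UB, and Fap, a fibroblast protease, 158.7, 715.5 and 3741 in MM and at most 68.2 in UB. The ratio of the 3' to the 5' control probe sets is a sign of RNA or amplification quality. For Gapdh it was 6.53 to 12.2 in UB and 22.1 to 69.3 in MM (two-sided exact permutation p = 0.0571). That is the smallest p that this test, which doubles the 1-sided value, can give with 4 against 3 arrays. For Actb the ratio was 10.9 to 16.2 and 11.1 to 17.9 (exact permutation p = 0.743). The part of RNA or amplification quality in the differences was not tested.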

How the data were processed

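RNA of 7 samples was amplified in 2 rounds and hybridised to 1-colour Affymetrix mouse whole-genome arrays. The deposited intensities are the authors' MAS5 signals, on a linear scale, per the submitters' processing notes; no counts or depth exist, and the number of arrays limits precision. The members and gene lists were chosen with earlier results of these data known. Of 45101 probe sets, 64 controls were left out, and 34945 had 1 gene symbol, 932 several and 9160 none in the platform annotation; 34754 matched the RefSeq table of GRCm38.p6. Here the deposited signals were transformed to log2(signal + 36.3), the offset being the 25th percentile of all values on 16 arrays. Probe sets above the array median in at least 3 arrays were tested with limma 3.58.1 (trend) in R 4.3.3, with Benjamini-Hochberg adjustment over all 23851; the fit was tested on simulated data. Nothing beyond separate embryos is stated about replicates, so p-values measure the spread between these arrays. Named genes were drawn, by rule, from the 4 markers, the brightest bud-only and mesenchyme-only genes, the 10 largest t in each direction, the largest called and brightest uncalled members of each list, pairs, genes with opposed probe sets and the most variable genes, of which not all are printed; the RNA-quality ratio used an exact permutation test. Genes beyond the rule (among them Star, Cyp11a1, Nr5a1, Cyp17a1 and Hsd3b1) were chosen after their values were seen. Alternatives covered offset, scaling, filter, variance, array weights, probe set choice and each array left out.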

Additional observations from a re-analysis of the deposited data

Results flagged for a closer look

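In 22 of 356 genes named in the report, 1 of the 4 UB arrays lay far from the others on the log2 scale, its gap to the nearest taking a share of the whole range above Dixon's 95% critical value; chance gives such a gap in about 1 of 20 groups, which is a similar share. UB replicate 1 was that array in 13 of them. It was the highest for Adamts12 (282.4), Hoxd1 (3389), Isl1 (981.8), Pdgfra (1094) and Slc15a2 (5429), and the lowest for Avpr2 (263.3), Cldn7 (23476), Farsa (2224), Grik5 (31.8), Krt18 (7900), Pcolce (297.0), Tjp3 (514.2) and Trim5 (22.2). UB replicate 2 was highest for Agrn (23825), Cyp17a1 (83.4) and Nrxn3 (1226) and lowest for Aqp2 (36.1) and Tmem14c (323.6). UB replicate 4 was highest for Trap1 (6609) and lowest for Myh10 (32682), Nr4a3 (123.4) and Tbx3 (11906). Of the genes highest in UB replicate 1, Adamts12, Isl1 and Pdgfra were called lower in UB, Hoxd1 higher and Slc15a2 neither. Of those lowest there, Avpr2, Cldn7, Farsa, Krt18 and Tjp3 were called higher, Pcolce lower and Grik5 and Trim5 neither. What set that array apart was not tested.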

How the results depend on the processing

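No paired analysis was possible because the replicate numbers of UB (1 to 4) and MM (5 to 7) do not overlap. The counts of calls depended most on how the spread was modelled. With array weights, which gave UB replicate 1 a weight of 0.35 and UB replicate 3 a weight of 4.25, 3050 genes were called higher and 2909 lower (5339 and 4793 probe sets); with a separate variance per group and no sharing across genes, 766 and 870 (1228 and 1260 probe sets). With the median of all probe sets of a gene, 1545 genes were called higher and 1204 lower. Leaving out 1 array gave 1227 to 2431 genes higher and 1285 to 2312 lower (2082 to 4220 and 1869 to 3625 probe sets), 27 to 33 bud-only and 9 to 18 mesenchyme-only genes, the 18 without UB replicate 1. Without UB replicate 1 and MM replicate 5 together, an alternative added after seeing the data, mesenchyme-only genes numbered 23. Of 327 tested genes named in the report, none changed sign under offset, scaling, filter, variance or array choices while called. With the median of probe sets, 7 did: Cggbp1 (0.19), Epb41l5 (3.13), Farsa (-0.48), Pik3r1 (1.05), Ppp2r5c (1.17), Robo1 (0.55) and Snrpd3 (-1.24), and 6 of these, all but Robo1, are genes with opposed probe sets. With that median only 280 of the 327 were tested, and 10 lost the call besides the 7 that changed sign. Across all genes it kept 2253 of 3547 calls in their direction. Of 255 named genes called, 64 lost the call with a separate variance per group and 9 with no filter. A further alternative, leaving out some single array, cost 19 the call, each with a limma adjusted p of at most 0.191: Actb, Angpt1, Cggbp1, Cyp11a1, Efna4, Epb41l5, Esrrg, Farsa, Gprc5c, Gsto1, Noc2l, Nrxn3, Pard6g, Pax3, Ppp2r5c, Ptch1, Robo1, Scnn1b and Snrpd3. Of 24 counts of 10 or more called members of a list or family, 14 moved by over 1.5 times with a separate variance per group, and at most 5 under any other alternative. Signal near background limits what is said of dim genes, whose differences are understated.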
